A study of Homo sapiens with 15 samples.

Results

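RNA of HCT116 cells treated for 72 h with an extract of oil production waste products (OPWPs) from Sicily (SE) was compared with RNA of untreated HCT116 cells. The comparison took in 6 of the 15 libraries of the series, 3 with SE and 3 untreated, and every gene with at least 1 TPM in 3 or more of the 15 libraries, which left 14899 of 60664 genes. HCT116 is an established human colorectal carcinoma cell line, and all cells were kept in RPMI medium with fetal bovine serum. OPWPs are what is left after olive oil is pressed, and SE is enriched in hydroxytyrosol (HTyr), a catechol. SE was given at 0.0154 mg/mL, as were the other 3 treatments of the series, an OPWP extract from Apulia (AE), one from Tuscany (TE) and pure HTyr, each with 3 libraries. The values are in TPM, an abundance corrected for transcript length that adds up to the same total in every library.

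Catechols such as HTyr are oxidized in culture medium to quinones and peroxide, and cells answer such electrophiles through the transcription factor NRF2, which its partner KEAP1 otherwise marks for destruction by the proteasome. Plant phenols can also bind the aryl hydrocarbon receptor (AHR), which switches on cytochrome P450 genes of the CYP1 family. Cell cycle genes are transcribed in waves, those of DNA replication under E2F factors and those of mitosis under MYBL2, FOXM1 and NF-Y, and the unfolded protein response of the endoplasmic reticulum (ER) acts through the factors ATF6, XBP1 and ATF4.

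The titles of the libraries call them biological replicates but do not say how the cultures were made, so a p-value here reflects only the spread between these libraries, which may be technical. The bracketed codes in the sample titles name Tuscany for the SE libraries and Sicily for the TE libraries, against the sample descriptions. The descriptions were followed, since all 1539 genes held of a labelled table of the study matched the column of the same name within 0.005 TPM, and at most 21 matched any other. Were the title codes correct instead, the SE values given here would belong to TE. Between 13813 and 13951 genes reached 1 TPM in the SE libraries, against 13782 to 13904 in the untreated libraries, and the depth per library is unknown because TPM do not keep it. Of the epithelial markers all 6 were expressed in all libraries, with EPCAM at 345, 304 and 303 TPM with SE, against 308, 346 and 326 TPM in untreated cells. The leukocyte marker PTPRC was listed at 0 in all 6 libraries, as was the fibroblast marker COL1A2, and the endothelial markers summed to 0.07 to 0.42 TPM with SE, against 0.32 to 0.37 TPM in untreated cells. The leukocyte list summed to 2.47 to 3.49 TPM with SE, against 17.0 to 18.5 TPM in untreated cells, nearly all of it from CD68, and the neural list to 48.1 to 52.5 TPM with SE, against 101 to 106 TPM in untreated cells, from SYT1 and MBP, and the part of these in other results was not tested. Cytosolic ribosomal protein genes held 21.7 ± 1.40% of all TPM with SE and 28.5 ± 1.22% in untreated cells (SD, n = 3 each, two-sided exact permutation p = 0.1, the smallest that 3 against 3 libraries allow), and mitochondrially encoded genes held 18.6 ± 2.33% with SE and 16.9 ± 1.56% in untreated cells (exact permutation p = 0.4). SE replicate 1 stood apart from SE replicates 2 and 3 on the second principal component (-35.5, against 14.9 and 17.2), and had the highest mitochondrially encoded share of the 6 libraries, 21.3%.

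SE changed the expression of 4168 of the 14899 genes tested. Of these, 2532 rose (17.0% of the genes tested) and 1636 fell (11.0%), with limma fitted to log2(TPM + 0.5) and calls made at a fold change over 1.5 either way and an adjusted p under 0.05. All log2 values and differences given here are on that scale, which understates changes of genes with low TPM. SE and untreated libraries did not overlap for 8564 genes (57.5% of those tested), and 4089 of the 4168 changed genes were among them. The changes were mostly of moderate size. Over 2-fold, 962 genes rose and 667 fell, and over 4-fold 59 rose and 85 fell. Rises made up 60.7% of the changed genes as deposited. The median of all genes stood at 0.09, beside the smaller share of ribosomal protein genes in the SE libraries. The balance depended on the scaling. Median-ratio scaling moved that median by 0.10 and gave 2000 genes higher and 2054 lower (49.3% rises), quantile normalization gave 51.2% rises, leaving out the ribosomal protein genes, which moved it by 0.11, gave 47.1%, and removing a trend with GC content and transcript length, an alternative added after seeing the data, gave 50.7%. These are the 4 scalings referred to here. Rises were most frequent among abundant genes, 25.7% of those over 100 TPM against 10.6% of those under 1 TPM. Falls made up 10.8% and 5.68% of the same genes, and were most frequent at 1 to 5 TPM (13.5%). Without SE replicate 1 the counts came to 2599 rises and 1583 falls.

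**Figure D1:**
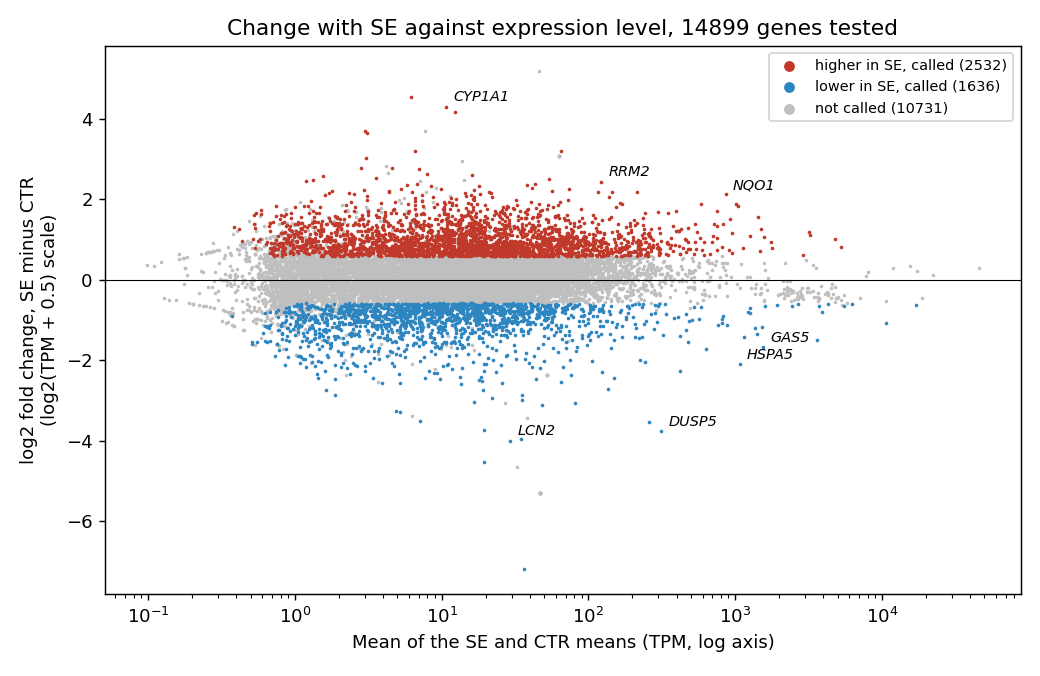
Log2 fold change of SE against untreated cells (vertical axis, log2(TPM + 0.5) scale) by mean abundance (horizontal axis, TPM on a log scale) for each of the 14899 genes tested. Red points are the 2532 genes that rose, blue points the 1636 that fell and grey points the rest, with CYP1A1 at 4.3 and LCN2 at -4.0.

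Among protein-coding genes of at least 5 TPM with no overlap between the groups, the largest rise was that of CYP1A1, and the largest falls were those of LCN2, KRT80 and DUSP5. KRT80, a keratin of the epithelial cytoskeleton (ENSG00000167767, chromosome 12, 52168996 to 52192014), stood at 3.55, 3.81 and 3.93 TPM with SE, against 72.8, 58.5 and 65.5 TPM in untreated cells, a difference of -3.95 log2 units (adjusted p = 4.24e-12, standard error 0.089). DUSP5, a nuclear phosphatase that switches off ERK (ENSG00000138166, chromosome 10, 110497907 to 110511533), stood at 38.6, 44.3 and 45.3 TPM with SE, against 642, 528 and 583 TPM in untreated cells, a difference of -3.76 log2 units (adjusted p = 8.97e-12, standard error 0.094). In both genes every SE library lay far below every untreated library. SPP1, which encodes the secreted phosphoprotein osteopontin, stood at 7.01, 5.8 and 4.73 TPM with SE, against 0, 0.48 and 0.43 TPM in untreated cells and rose by 3.03 log2 units (adjusted p = 9.53e-06, standard error 0.36). CEMIP, a protein that breaks down hyaluronan, stood at 13.8, 12.8 and 15.8 TPM with SE, against 1.8, 1.8 and 1.95 TPM in untreated cells and rose by 2.63 log2 units (adjusted p = 5.18e-09, standard error 0.14). FAM111B, a protease gene, rose by 2.74 and ESCO2, a cohesin acetyltransferase, by 2.59. On the other side TNNT2, a cardiac troponin gene, stood at 0.60, 0.70 and 0.25 TPM with SE, against 12, 8.17 and 7.56 TPM in untreated cells. LURAP1L (-3.04), LAT2 (-2.95) and PTPDC1 (-2.73) fell as well. TNFRSF6B, a decoy receptor for the FAS ligand, fell by 3.11, but all of its exonic bases lie in a readthrough gene with RTEL1, so that reads cannot be told apart.

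**Figure D2:**
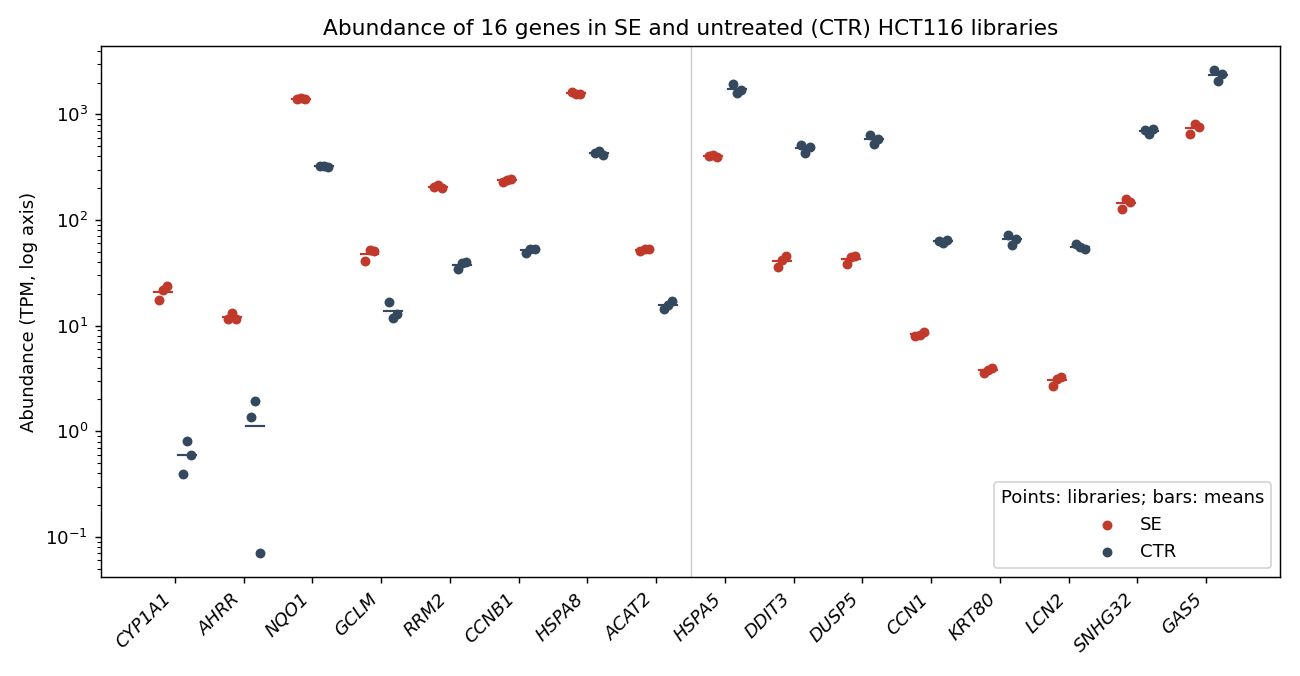
Abundance (TPM, log axis) of 16 genes in each of the 3 SE libraries (red points) and 3 untreated libraries (dark points), with means as bars. The 8 genes on the left lie higher in every SE library and the 8 on the right lower, with CYP1A1 at 17.6 to 23.5 TPM with SE and 0.39 to 0.81 TPM in untreated cells and DUSP5 at 38.6 to 45.3 TPM with SE and 528 to 642 TPM in untreated cells.

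Several targets of AHR rose, CYP1A1 among them. CYP1A1, which oxidizes polycyclic and plant aromatics (ENSG00000140465, chromosome 15, 74719542 to 74725536), stood at 17.6, 21.8 and 23.5 TPM with SE, against 0.39, 0.81 and 0.60 TPM in untreated cells, a difference of 4.3 log2 units (adjusted p = 3.09e-10, standard error 0.17). CYP1B1, its relative, stood at 3.22, 2.96 and 3.19 TPM with SE, against 0.29, 0.32 and 0.33 TPM in untreated cells, a difference of 2.15 log2 units (adjusted p = 6.78e-08, standard error 0.16). AHRR, the repressor that AHR itself induces, stood at 11.6, 13.2 and 11.6 TPM with SE, against 1.37, 1.94 and 0.07 TPM in untreated cells, a difference of 3.19 log2 units (adjusted p = 6.69e-06, standard error 0.37), although 58.7% of its exonic bases are shared with a readthrough gene of PDCD6. TIPARP, an ADP-ribosyltransferase that limits AHR, stood at 72.8, 77.5 and 67.8 TPM with SE, against 16.8, 22.3 and 19.2 TPM in untreated cells and rose by 1.88. In all 4 genes the SE libraries lay above every untreated library. Of the 9 listed genes tested, 5 rose (3 where a mean of at least 5 TPM was asked for) and 1 fell, with a median of 0.99 against 0.09 over all genes. CYP1A2 and UGT1A6, also listed, were below the filter on low values and were not tested. AHR itself stood at 20.5, 22.5 and 19.9 TPM with SE, against 16, 16.4 and 15.1 TPM in untreated cells (0.40) and its partner ARNT at 17.4, 17.3 and 13.9 TPM with SE, against 22.4, 21 and 23.8 TPM in untreated cells (-0.46), both short of the fold threshold. The CYP1A1 promoter is shown because this gene had the largest rise of any protein-coding gene named here. It is the stretch from 250 bases before to 50 bases after the RefSeq transcription start on GRCh38.p14 (chr15:74725479-74725778, minus strand), 5′ to 3′, with the core of the xenobiotic response element (GCGTG, either strand) in capitals:
CYP1A1: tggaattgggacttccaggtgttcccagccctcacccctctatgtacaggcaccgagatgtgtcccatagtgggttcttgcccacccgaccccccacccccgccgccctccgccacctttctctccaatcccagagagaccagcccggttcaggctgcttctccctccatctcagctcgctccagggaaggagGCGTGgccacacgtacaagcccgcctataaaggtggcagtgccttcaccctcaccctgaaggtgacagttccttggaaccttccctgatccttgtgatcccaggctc
A single match was found, 57 bases before the start. Of the 10543 tested genes whose promoter could be looked up, 51.3% hold such a match, as did 4 of the 5 AHR axis members looked up, and of all 27305 promoters 36.3%.

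Genes of the NRF2 response rose more often than they fell, and genes that regenerate NADPH were among those that rose. Of 34 listed genes of NRF2, its regulators and its targets, 19 rose and 1 fell, with a median of 0.80. NQO1, the quinone reductase that keeps catechol quinones reduced (ENSG00000181019, chromosome 16, 69706996 to 69726668), stood at 1396, 1425 and 1396 TPM with SE, against 327, 328 and 316 TPM in untreated cells, a difference of 2.12 log2 units (adjusted p = 4.24e-12, standard error 0.047). GCLM, the modifier subunit of the enzyme that begins glutathione synthesis, stood at 41.3, 51.6 and 51 TPM with SE, against 16.6, 11.7 and 12.8 TPM in untreated cells (1.78), with SE replicate 1 the lowest of the treated libraries. Heme oxygenase HMOX1 stood at 35.5, 40.2 and 39 TPM with SE, against 16.8, 15.3 and 14.2 TPM in untreated cells and rose by 1.29. PGD, a dehydrogenase of the pentose phosphate pathway, stood at 187, 154 and 163 TPM with SE, against 65.7, 65.2 and 61.6 TPM in untreated cells and rose by 1.38. Other members moved less. SLC7A11, which imports cystine, stood at 39.4, 47.8 and 40.5 TPM with SE, against 36.4, 30.3 and 35 TPM in untreated cells (0.32), the thioredoxin reductase TXNRD1 at 355, 352 and 332 TPM with SE, against 349, 317 and 317 TPM in untreated cells (0.08), and the catalytic subunit GCLC at 92.2, 77 and 71.2 TPM with SE, against 82.9, 73.6 and 66.3 TPM in untreated cells (0.11), none past the thresholds. NFE2L2, which encodes NRF2, did not pass them either (0.17), while KEAP1 stood at 55.1, 49.2 and 55.1 TPM with SE, against 31.3, 29.1 and 28.8 TPM in untreated cells and rose by 0.83. The exporter ABCC3 fell by 0.65, a call lost without untreated replicate 2 or SE replicate 3, and ABCC2, another exporter of conjugates, rose by 1.36. Of 25 listed NRF2 targets whose promoter could be looked up, 6 (24.0%) hold the core of the antioxidant response element (TGACNNNGC, either strand) within the 300 bases, against 15.4% of the genes tested, and NQO1 holds none there. The share was 32.0% among ATF4 targets, most of which did not rise, and 20% to 22% among ER folding, mitotic and replication genes.

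Among peroxiredoxins, glutathione enzymes and related antioxidant enzymes, 11 of 24 rose and 2 fell (4 falls with quantile normalization, 1 without SE replicate 1 or untreated replicate 3). SOD1, which turns superoxide into peroxide, stood at 604, 602 and 597 TPM with SE, against 254, 249.6 and 251 TPM in untreated cells, a difference of 1.26 log2 units (adjusted p = 1.32e-09, standard error 0.058). PRDX1 and PRDX2, cytosolic peroxiredoxins, rose by 1.1 and 1.35, GSTP1, a glutathione transferase, by 1.35, and catalase (CAT) by 1.0. The glutathione peroxidase GPX1 went the other way at 93.6, 117 and 120.2 TPM with SE, against 169, 156 and 199 TPM in untreated cells (-0.66), a call lost without SE replicate 1 or untreated replicate 3, and 39.9% of its exonic bases lie in another annotated gene. Of 13 genes that conjugate or export phenols, 3 rose and 1 fell (median 0.02), 23.1% and 7.69% against 17.0% and 11.0% of all genes. There were 5 rises without untreated replicate 3 and no fall without untreated replicate 2 or SE replicate 3. Of 13 genes of iron handling 3 rose, among them the transferrin receptor TFRC (1.07), with a median of 0.37, and of 8 metallothionein and zinc genes 2 rose (1 without untreated replicate 3 or SE replicate 2), 23.1% and 25% against 17.0% of all genes.

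The DNA replication list had the highest share of members called in 1 direction among the 55 lists. Of 48 listed genes, 47 rose and 1, RFC1, did not pass the fold threshold (0.30), with a median log2 fold change of 1.66 against 0.09 over all genes. PCNA, the sliding clamp of the polymerases (ENSG00000132646, chromosome 20, 5114953 to 5126626), stood at 325, 361 and 367 TPM with SE, against 78.7, 71.8 and 80.3 TPM in untreated cells, a difference of 2.18 log2 units (adjusted p = 1.08e-10, standard error 0.076). PCLAF, which binds it, stood at 75.6, 138 and 142 TPM with SE, against 15.7, 8.93 and 12.1 TPM in untreated cells, a difference of 3.2 log2 units (adjusted p = 8.66e-08, standard error 0.24), and was the member that rose most, with SE replicate 1 well below the other SE libraries. Another annotated gene on the same strand shares 29.3% of the exonic bases of PCLAF. All 6 subunits of the MCM helicase rose, by 1.3 (MCM7) to 2.2 (MCM5). ASF1B, a histone chaperone, stood at 68.5, 73.7 and 77.6 TPM with SE, against 12.7, 14 and 14.3 TPM in untreated cells (2.38), and FEN1, which trims Okazaki fragments, at 119, 121 and 125 TPM with SE, against 23, 28.7 and 24.3 TPM in untreated cells (2.25). Enzymes that make deoxynucleotides rose with them. RRM2, the regulated subunit of ribonucleotide reductase (ENSG00000171848, chromosome 2, 10120698 to 10211725), stood at 203, 216 and 199 TPM with SE, against 34.2, 39 and 40.2 TPM in untreated cells, a difference of 2.43 log2 units (adjusted p = 2.92e-11, standard error 0.071). TYMS, which makes thymidylate, stood at 256, 267 and 270.4 TPM with SE, against 62.4, 76.6 and 78.3 TPM in untreated cells (1.87). TK1, which salvages thymidine, stood at 201, 227 and 239 TPM with SE, against 50.7, 50.1 and 58.6 TPM in untreated cells (2.06). Of the whole list of nucleotide synthesis 11 of 20 rose, and purine enzymes such as GART (0.05) and PPAT (0.07) were among those that did not pass. TYMS shares 39.9% of its exonic bases with ENOSF1 on the other strand, and the strand setting of the counting is not known.

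Mitotic genes rose almost as uniformly, 54 of 56 with a median of 1.41. CCNB1, a cyclin that activates CDK1 at the start of mitosis (ENSG00000134057, chromosome 5, 69167135 to 69178245), stood at 229, 239 and 247 TPM with SE, against 49.1, 53.6 and 53.4 TPM in untreated cells, a difference of 2.19 log2 units (adjusted p = 9.10e-12, standard error 0.056). Its kinase partner CDK1 stood at 169, 184 and 190.5 TPM with SE, against 59.5, 70.2 and 65.5 TPM in untreated cells (1.47), the polo kinase PLK1 at 70.3, 57.9 and 61 TPM with SE, against 18.6, 23.7 and 21.3 TPM in untreated cells (1.55) and the spindle kinase AURKA at 58.4, 60.9 and 57.9 TPM with SE, against 14.3, 20.6 and 18.2 TPM in untreated cells (1.73). The SE libraries lay above all untreated libraries in each of them. TOP2A, which untangles chromosomes, rose by 1.58, the proliferation marker MKI67 by 1.48, and the transcription factors MYBL2 and FOXM1 by 1.84 and 1.67. The members that did not pass were CKS1B, at 237, 270.2 and 266 TPM with SE, against 240.1, 219 and 253 TPM in untreated cells, and the phosphatase CDC25B, at 66.3, 63.6 and 72.2 TPM with SE, against 62.7, 61.6 and 64.3 TPM in untreated cells, and in both the groups overlapped. Of 24 genes of recombination, the Fanconi pathway and mismatch repair 21 rose (median 1.4), among them EXO1, an exonuclease of repair, at 28.2, 27.2 and 26.5 TPM with SE, against 5.03, 7.26 and 6.34 TPM in untreated cells (2.06), and MSH6, a mismatch sensor gene, at 42.5, 39.8 and 39.6 TPM with SE, against 17.8, 18.6 and 18.7 TPM in untreated cells (1.12), with 22.7% of its exonic bases overlapping FBXO11 on the other strand. The damage kinases ATR (0.36) and ATM (-0.38) were not called. Tubulin genes followed, with 10 of 15 tubulin and stathmin genes raised and TUBA1B at 1625, 1587 and 1681 TPM with SE, against 444, 473 and 460.1 TPM in untreated cells, a difference of 1.83 log2 units (adjusted p = 8.97e-12, standard error 0.047). These are bulk samples, in which a larger share of cells in a phase of the cycle and more RNA per cell cannot be told apart.

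Promoters of a gene of deoxynucleotide synthesis and of a mitotic gene are shown because genes of replication and mitosis moved together. They are RefSeq sequences on GRCh38.p14, from 250 bases before to 50 bases after the transcription start, for RRM2 (chr2:10122489-10122788, plus strand) and CCNB1 (chr5:69166900-69167199, plus strand). Capitals mark the NF-Y motif CCAAT, searched with its reverse complement, and would also mark the cell cycle homology region TTTGAA and, in RRM2, the E2F motifs TTTGGCGC and TTTCCCGC, of which these windows hold no exact match:
RRM2: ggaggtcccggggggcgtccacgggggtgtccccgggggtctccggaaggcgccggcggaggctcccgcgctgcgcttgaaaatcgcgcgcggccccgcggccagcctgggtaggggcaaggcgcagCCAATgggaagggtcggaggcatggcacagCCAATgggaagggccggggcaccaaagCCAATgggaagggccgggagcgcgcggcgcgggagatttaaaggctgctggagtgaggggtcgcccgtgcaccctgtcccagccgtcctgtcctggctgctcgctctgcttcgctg
CCNB1: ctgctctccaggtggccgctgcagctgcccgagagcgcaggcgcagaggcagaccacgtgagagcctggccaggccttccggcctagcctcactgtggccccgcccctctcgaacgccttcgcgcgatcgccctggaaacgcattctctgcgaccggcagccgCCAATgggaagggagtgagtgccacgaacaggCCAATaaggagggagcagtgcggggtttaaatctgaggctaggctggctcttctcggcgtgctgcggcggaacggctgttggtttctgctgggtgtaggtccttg
RRM2 holds 3 CCAAT motifs between 123 and 62 bases before the start, and CCNB1 holds 2 between 87 and 51 bases before it. Among the replication genes looked up, 41 of 48, the E2F motif TTTGGCGC was found in 17.1% and TTTCCCGC in 24.4%, against 1.1% and 2.7% of the genes tested and 0.7% and 1.7% of all promoters. TTTGAA was found in 66.7% of the promoters of 48 mitotic genes and 2.4% of those of the replication genes, against 9.3% of the genes tested and 15.4% of all promoters. CCAAT was found in 72.9% of mitotic and 61.0% of replication promoters, against 36.8% of the genes tested and 35.7% of all promoters. Over all genes changed by SE, TTTGAA was present in 13.2% of 1907 promoters of genes that rose and 8.4% of 1130 of genes that fell, and TTTGGCGC in 2.5% and 0.4%. A match is a description of the sequence, and binding was not measured.

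**Figure D3:**
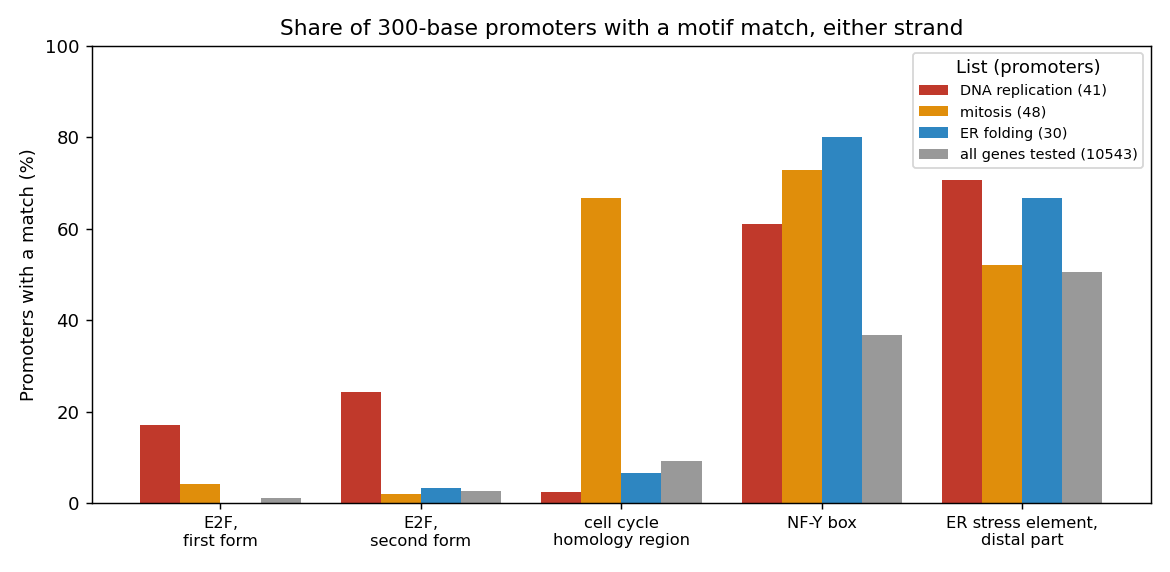
Share of promoters (vertical axis, percent) that hold a match on either strand to each of 5 motifs, for listed replication genes (red), mitotic genes (orange), genes of ER folding (blue) and all genes tested (grey), with the number of promoters in the legend. The cell cycle homology region stands out in the mitotic list (66.7%, against 9.3% of the genes tested), and both E2F motifs in the replication list.

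The regulators of the G1 phase split. E2F1 stood at 15.6, 16 and 17.4 TPM with SE, against 5.72, 5.74 and 5.97 TPM in untreated cells (1.41) and E2F2 at 8.87, 8.87 and 9.37 TPM with SE, against 1.81, 1.58 and 1.2 TPM in untreated cells, a difference of 2.24 log2 units (adjusted p = 8.49e-09, standard error 0.13). CCNE2, a cyclin of S phase entry, stood at 23.6, 24.3 and 24.5 TPM with SE, against 6.36, 4.75 and 4.88 TPM in untreated cells (2.09) and CCNE1 rose by 1.33. Cyclin D1 (CCND1) stood at 146, 161 and 159 TPM with SE, against 188, 169 and 189 TPM in untreated cells (-0.23), without passing the fold threshold, and the inhibitor CDKN1A at 157, 188 and 179 TPM with SE, against 262, 241 and 273 TPM in untreated cells (-0.56), short of it too. CDKN2B, another inhibitor (-0.76), and E2F5 (-0.94) fell. In all 13 of 27 G1 genes rose and 2 fell, with 4 falls under 3 of the 4 scalings and without untreated replicate 2 or SE replicate 2. Of 28 p53-induced genes 7 rose and 7 fell, 25% each way against 17.0% and 11.0% of all genes. Their median of 0.08 took the other sign under median-ratio scaling and without the ribosomal protein genes. MDM2, which degrades p53, stood at 106, 100.3 and 78.5 TPM with SE, against 39.6, 55.1 and 41.2 TPM in untreated cells (1.06), the death receptor FAS at 21.8, 25.7 and 25 TPM with SE, against 6.96, 9.75 and 8.07 TPM in untreated cells (1.5) and TP53I3, a quinone oxidoreductase, at 26, 24.9 and 25.6 TPM with SE, against 9.12, 9.45 and 8.65 TPM in untreated cells (1.44). Among those that fell, GADD45A, a growth arrest gene, stood at 49, 44.3 and 49.6 TPM with SE, against 138, 152 and 153 TPM in untreated cells (-1.62), GDF15, a secreted stress cytokine, at 219.9, 244 and 235 TPM with SE, against 645, 561 and 642 TPM in untreated cells (-1.4), and the death receptor TNFRSF10B fell by 1.34. Among BCL2 family and caspase genes 7 of 28 rose (4 with the GC and length trend removed) and 5 fell, 25% and 17.9% against 17.0% and 11.0% of all genes. The pro-apoptotic BAX was among the rises (0.89) and the anti-apoptotic BCL2L1 among the falls (-0.97).

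Most chaperone genes of the cytosol and of the mitochondrial matrix rose, and no listed folding gene of the ER did (1 without SE replicate 1). Of 33 cytosolic and mitochondrial chaperone genes 23 rose and none fell (median 0.78). With quantile normalization 16 rose (median 0.56). HSPA8, the constitutive HSP70 (ENSG00000109971, chromosome 11, 123057489 to 123063230), stood at 1635, 1571 and 1555 TPM with SE, against 427, 450.4 and 412 TPM in untreated cells, a difference of 1.88 log2 units (adjusted p = 4.49e-10, standard error 0.077). HSP90AA1 stood at 2089, 2249 and 2106 TPM with SE, against 693, 764 and 722 TPM in untreated cells (1.56) and HSP90AB1 at 2068, 2177 and 2153 TPM with SE, against 899, 865 and 895 TPM in untreated cells (1.27). HSPE1, the small partner of the mitochondrial chaperonin, stood at 1195, 1145 and 1098 TPM with SE, against 345, 351 and 351 TPM in untreated cells (1.71), and HSPD1, the chaperonin itself, at 1394, 1317 and 1253 TPM with SE, against 599, 631 and 558 TPM in untreated cells (1.15). The HSP90, HSP70 and cyclophilin genes have near-identical copies and pseudogenes among which reads can be split. All 8 subunit genes of the CCT ring had values above zero, 7 of them called, with CCT8 at 0.96 and CCT4 short of the threshold (0.53). The heat-inducible cochaperone DNAJB1 (-0.19) and the factor HSF1 (-0.24) were not called. Proteasome genes also rose, 28 of 32 (median 0.79, 18 of 32 with quantile normalization), with PSMD1 at 104.2, 112 and 109 TPM with SE, against 41.8, 40.2 and 40.4 TPM in untreated cells, a difference of 1.4 log2 units (adjusted p = 6.49e-10, standard error 0.059), and the ubiquitin gene UBB at 1973, 2154 and 2257 TPM with SE, against 1027, 967 and 1064 TPM in untreated cells (1.06).

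HSPA5, the main chaperone of the ER (ENSG00000044574, chromosome 9, 125234853 to 125241382), stood at 405, 414 and 396 TPM with SE, against 1939.9, 1599.8 and 1699 TPM in untreated cells, a difference of -2.1 log2 units (adjusted p = 4.17e-11, standard error 0.065). Of 32 genes of ER folding and degradation 14 fell and none rose (median -0.21). DNAJB9, its cochaperone, stood at 9.75, 12 and 9.93 TPM with SE, against 36.9, 36.6 and 35.8 TPM in untreated cells (-1.75), and HERPUD1, which serves ER-associated degradation, at 57.8, 57.7 and 53.9 TPM with SE, against 135, 142 and 157 TPM in untreated cells (-1.35). The stress sensors ERN1 (-1.33), ATF6 (-1.01) and EIF2AK3 (-0.76) fell too. Foldases of the ER lumen did not pass, such as PDIA3 (-0.02), CALR (0.35) and HSP90B1 (-0.19). The HSPA5 promoter is shown because this was the member of the list that fell most. It is the RefSeq sequence on GRCh38.p14 (chr9:125241294-125241593, minus strand), with CCAAT on either strand and CCACG, the distal part of the ER stress response element, in capitals:
HSPA5: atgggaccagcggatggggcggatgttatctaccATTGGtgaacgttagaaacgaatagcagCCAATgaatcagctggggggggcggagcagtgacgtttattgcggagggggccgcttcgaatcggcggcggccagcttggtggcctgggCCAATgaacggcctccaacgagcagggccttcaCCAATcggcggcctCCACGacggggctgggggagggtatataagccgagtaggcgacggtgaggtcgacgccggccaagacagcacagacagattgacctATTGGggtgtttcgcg
The window holds 5 CCAAT motifs, on the gene's strand or the other, and 1 CCACG motif 52 to 48 bases before the start. Over the 30 ER folding genes looked up CCAAT was present in 80.0% and CCACG in 66.7%, against 36.8% and 50.5% of the genes tested and 35.7% and 37.9% of all promoters. CCACG was present in 70.7% of the replication promoters, so a high share of it was not particular to the ER list.

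Targets of ATF4, the factor of the integrated stress response, fell more often than they rose. Of 30 listed genes tested 14 fell and 1 rose, with a median of -0.55. DDIT3, which encodes the stress factor CHOP (ENSG00000175197, chromosome 12, 57516588 to 57521737), stood at 35.8, 42.1 and 45.8 TPM with SE, against 518, 427 and 489.5 TPM in untreated cells, a difference of -3.52 log2 units (adjusted p = 4.17e-11, standard error 0.11), although 27.2% of its exonic bases overlap MARS1 on the other strand. TRIB3, a pseudokinase that CHOP and ATF4 induce, stood at 35.4, 42.5 and 46.8 TPM with SE, against 185, 149.8 and 177 TPM in untreated cells (-2.03), and PPP1R15A, a phosphatase subunit that restores translation, at 27.2, 22 and 24.4 TPM with SE, against 115, 142 and 129 TPM in untreated cells (-2.37). The asparagine synthetase ASNS stood at 180.1, 191 and 199.9 TPM with SE, against 427, 358 and 396 TPM in untreated cells (-1.04) and the alanyl-tRNA synthetase AARS1 at 134, 121 and 122 TPM with SE, against 324, 355 and 332 TPM in untreated cells (-1.42). ATF4 itself stood at 572, 577 and 621 TPM with SE, against 616, 589 and 614 TPM in untreated cells, with overlapping groups. The serine enzymes PHGDH (0.10) and PSAT1 (0.10) were not called, and PSPH rose by 0.68, a call lost under the 4 scalings. Of 20 cytosolic tRNA synthetases 3 fell (6 with quantile normalization) and 2 rose (1 under each of the 4 scalings). These shares of 15% and 10% lie beside 11.0% falling and 17.0% rising among all genes.

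**Figure D4:**
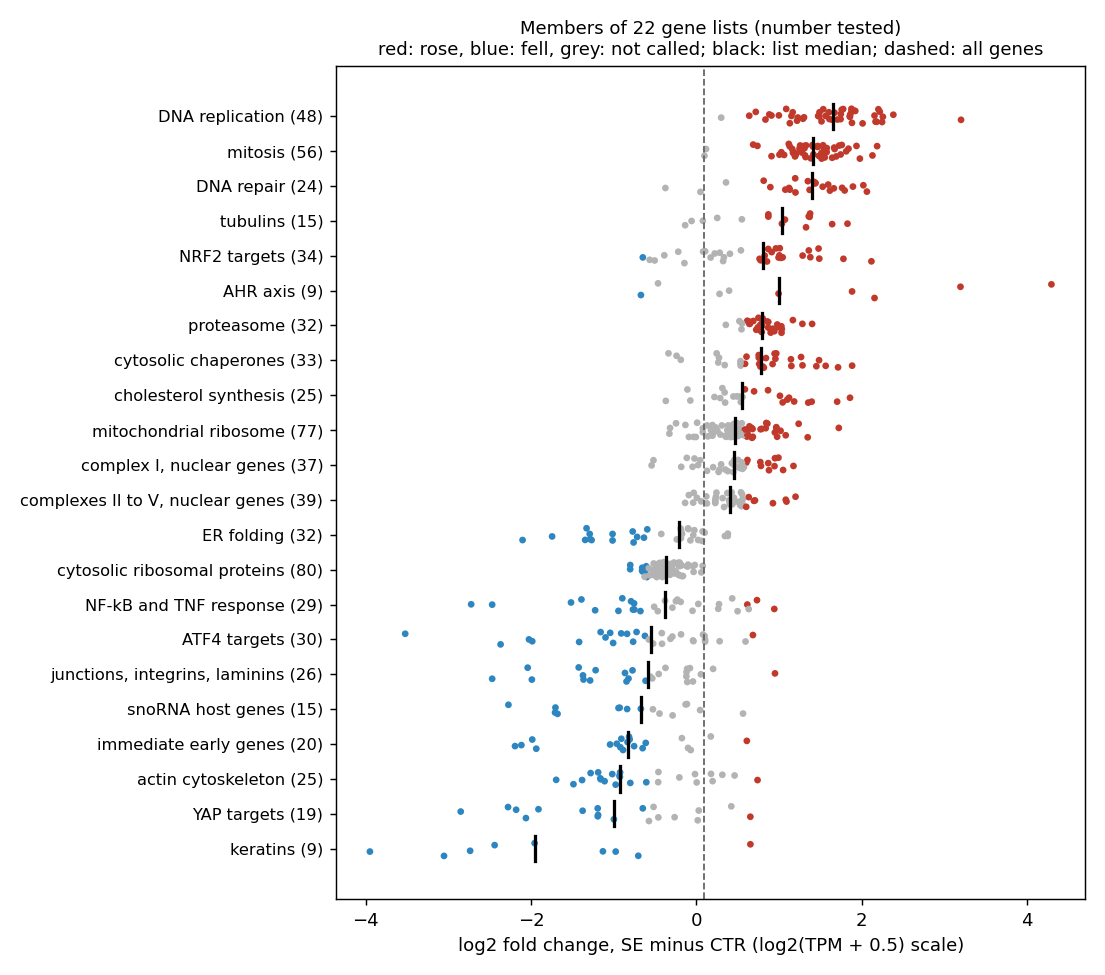
Log2 fold change of SE against untreated cells (horizontal axis) of each tested member of 22 gene lists, with red for genes that rose, blue for genes that fell, grey for genes not called, a black bar for each list's median and a dashed line for the median of all genes, 0.09. Replication (1.66), mitosis (1.41) and repair (1.4) have the highest medians and keratins (-1.96) and YAP targets (-1.0) the lowest.

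Immediate early genes and feedback genes of the ERK pathway fell more often than they rose. Of 20 AP-1, KLF and related immediate early genes 15 fell and 1, KLF10, rose by 0.61, a call lost under the 4 scalings and without SE replicate 2. JUN, a subunit of AP-1, stood at 4.66, 4.25 and 5.06 TPM with SE, against 21, 23.9 and 24.4 TPM in untreated cells (-2.19), KLF4, an epithelial factor, at 8.42, 9.8 and 9.23 TPM with SE, against 44.2, 39.6 and 40.2 TPM in untreated cells (-2.12), and ATF3 at 31.7, 28.5 and 29.4 TPM with SE, against 109.5, 126 and 124 TPM in untreated cells (-1.99). MYC stood at 206, 213 and 194 TPM with SE, against 365, 363 and 363 TPM in untreated cells, a difference of -0.83 log2 units (adjusted p = 6.08e-08, standard error 0.059). FOS (0.17) and EGR1 (-0.18), both classic ERK-induced members, were not called. Of 18 feedback genes 8 fell (5 where a mean of at least 5 TPM was asked for) and 1 rose. Besides DUSP5, EPHA2, a receptor tyrosine kinase gene that ERK induces, stood at 39.7, 44.3 and 41.7 TPM with SE, against 202, 204 and 210.04 TPM in untreated cells (-2.28) and DUSP1 at 5.21, 5.49 and 4.78 TPM with SE, against 15.1, 16.2 and 17.8 TPM in untreated cells (-1.57), while DUSP6, the cytosolic ERK phosphatase, stood at 129.9, 114 and 119 TPM with SE, against 133, 167 and 141 TPM in untreated cells (-0.27, not called). Among EGFR family genes 5 of 12 fell and 2 rose (at most 1 under the 4 scalings), with a median of 0.0019, and the falls included the ligand genes HBEGF (-1.44) and AREG (-0.99), the receptor gene EGFR (-0.78) and the feedback inhibitor ERRFI1 (-1.54).

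Genes that depend on YAP and TEAD and genes of the actin cytoskeleton also fell more often than they rose. Of 19 YAP genes 11 fell and 1 rose (median -1.0), the rise being lost without untreated replicate 3 or SE replicate 1. CCN1, a matricellular protein (ENSG00000142871, chromosome 1, 85580761 to 85584589), stood at 7.95, 8.19 and 8.67 TPM with SE, against 62.8, 60.7 and 64.8 TPM in untreated cells, a difference of -2.85 log2 units (adjusted p = 1.08e-10, standard error 0.10), and CCN2 at 2.12, 2.66 and 2.61 TPM with SE, against 16.3, 12 and 13.5 TPM in untreated cells (-2.28). AXL, a receptor tyrosine kinase, stood at 17.6, 16 and 16.3 TPM with SE, against 76.8, 74.8 and 79.5 TPM in untreated cells (-2.18). YAP1 itself (0.42) and TEAD1 (0.02) were not called. Of 25 actin genes 15 fell and 1, the actin-severing CFL1, rose, a call lost with quantile normalization. Both cytoplasmic actins fell, ACTB at 857, 792 and 858 TPM with SE, against 2035, 1798 and 1888 TPM in untreated cells (-1.19) and ACTG1 at 1703, 1941 and 2011 TPM with SE, against 6121, 4513 and 5307 TPM in untreated cells (-1.49), genes with many pseudogenes, and VCL, which links actin to adhesions, stood at 38.7, 38.5 and 37.3 TPM with SE, against 101, 94 and 106 TPM in untreated cells (-1.38).

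Keratin and junction genes did the same. Of 9 keratin genes 8 fell. KRT7, a keratin of simple epithelia, stood at 18.4, 14.7 and 18 TPM with SE, against 139, 156 and 139 TPM in untreated cells, a difference of -3.05 log2 units (adjusted p = 3.09e-10, standard error 0.12). The abundant pair KRT8 and KRT18 fell less, KRT8 at 1036, 905 and 942 TPM with SE, against 1531, 1611 and 1546 TPM in untreated cells (-0.70) and KRT18 at 521, 543 and 584 TPM with SE, against 1279.8, 1134 and 1198 TPM in untreated cells (-1.13). KRT23 rose by 0.65, a call lost under the 4 scalings. Of 26 genes of junctions, integrins and laminins 13 fell and 1 rose. LAMB3, a chain of the hemidesmosomal laminin, stood at 14.2, 11.4 and 14 TPM with SE, against 74.6, 72.8 and 77.6 TPM in untreated cells (-2.47), and ITGA3, an integrin that binds it, at 102, 81.9 and 99 TPM with SE, against 339, 433 and 400.5 TPM in untreated cells (-2.04). E-cadherin (CDH1, -0.53), EPCAM (-0.04) and desmoplakin (DSP, -0.12) were not called. Of 16 invasion genes 6 fell and 2 rose (1 without untreated replicate 1 or 3 or SE replicate 1 or 2). PLAU, the urokinase that activates plasminogen (ENSG00000122861, chromosome 10, 73909177 to 73917496), stood at 36.8, 31.3 and 39.1 TPM with SE, against 235, 252 and 228 TPM in untreated cells, a difference of -2.72 log2 units (adjusted p = 7.01e-11, standard error 0.089), although 31.0% of its exonic bases overlap C10orf55 on the other strand. Of 9 intestinal identity genes only the carbonic anhydrase CA2 passed, at 45.5, 51.9 and 48.7 TPM with SE, against 19, 20.3 and 23.3 TPM in untreated cells (1.21), while CDX2 (0.16), HNF4A (0.12) and SOX9 (-0.43) did not.

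NF-kB and TNF response genes fell more often than they rose, 12 against 3 of 29, with a median of -0.38. Several of those that fell most, PLAU, LAMB3 and SDC4 (-1.39), are also genes of invasion or adhesion. TNFAIP3, a feedback inhibitor (-0.90), and ICAM1, an adhesion receptor (-0.77), fell. The inhibitor NFKBIA stood at 35.2, 33.3 and 34.7 TPM with SE, against 21.2, 22.4 and 18.1 TPM in untreated cells and rose by 0.73, and the subunit genes RELA (-0.25) and NFKB1 (0.43) were not called. Of the chemokine genes CXCL3 fell by 1.52, while CXCL8 (-0.51) and CXCL1 (-0.23) did not pass. Of 8 genes of secreted defence proteins 3 fell and 1 rose (none under the 4 scalings, 2 without untreated replicate 1). LCN2, which binds the iron carriers of bacteria (ENSG00000148346, chromosome 9, 128149071 to 128153453), stood at 2.66, 3.15 and 3.28 TPM with SE, against 59.2, 56 and 52.6 TPM in untreated cells, a difference of -4.0 log2 units (adjusted p = 8.32e-12, standard error 0.097), and SLPI, an inhibitor of leukocyte proteases, at 2.42, 2.78 and 3.14 TPM with SE, against 17, 16.8 and 13.9 TPM in untreated cells (-2.32). Interferon and MHC class I genes moved both ways, 5 up and 8 down of 35, 14.3% and 22.9% against 17.0% and 11.0% of all genes. Among the rises OAS3, a sensor of double-stranded RNA, stood at 19, 18.7 and 16.7 TPM with SE, against 3.45, 4.89 and 4.98 TPM in untreated cells (1.93). ISG20, a ribonuclease, was among the falls (-2.33). The count of rises came to 3 under each of the 4 scalings and without untreated replicate 1, SE replicate 2 or SE replicate 3, and to 2 where a mean of at least 5 TPM was asked for. Of 8 checkpoint ligand genes 4 fell, VSIR at 8.77, 5.44 and 9.22 TPM with SE, against 40.8, 33.5 and 43.8 TPM in untreated cells (-2.29) and CD274, which encodes PD-L1, at 1.44, 1.7 and 1.0 TPM with SE, against 3.15, 2.96 and 2.29 TPM in untreated cells (-0.82). In the TGF-beta list 5 of 19 fell, 26.3% against 11.0% of all genes, PMEPA1 (-1.35) among them. That count was 3 without untreated replicate 2 or 3 or without SE replicate 2, and 2 where a mean of at least 5 TPM was asked for. Of 11 WNT targets 3 rose and 2 fell, 27.3% and 18.2% against 17.0% and 11.0% of all genes. AXIN2, a feedback inhibitor of beta-catenin, stood at 12.4, 11.5 and 12.1 TPM with SE, against 2.52, 3.72 and 2.95 TPM in untreated cells (1.82), and 25.3% of its exonic bases lie in another annotated gene. The secreted inhibitor DKK1 stood at 103, 91.1 and 103 TPM with SE, against 218, 220.5 and 202 TPM in untreated cells (-1.11).

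Genes of the cytosolic ribosome had small differences, nearly all of them below zero. Of 80 ribosomal protein genes 8 fell past the threshold, 10% against 11.0% of all genes, and none rose. The median was -0.37, and 2.5% of these genes had a value above zero. The number called depended on the scaling, 21 with the GC and length trend removed, 18 with median-ratio scaling and 2 with quantile normalization, and came to 5 without SE replicate 1, while the median stayed below zero in each (-0.15 with quantile normalization). RPL13 stood at 2596, 2926 and 3039.9 TPM with SE, against 4928, 4837 and 5118 TPM in untreated cells (-0.80) and EEF1A1, the elongation factor whose mRNA shares their terminal oligopyrimidine tract, at 13378, 13672 and 13542 TPM with SE, against 21468, 20667 and 20429 TPM in untreated cells (-0.62), and both calls were lost with quantile normalization. Larger falls were seen among genes that host small nucleolar RNAs, several of which carry the same tract. Of 15 host genes 8 fell and none rose (1 without untreated replicate 1 or SE replicate 1 or 3, median -0.67). SNHG32 (ENSG00000204387, chromosome 6, 31834608 to 31839766) stood at 127, 159 and 148 TPM with SE, against 714, 651 and 731 TPM in untreated cells, a difference of -2.27 log2 units (adjusted p = 1.71e-10, standard error 0.084), although 23.2% of its exonic bases lie in another annotated gene. GAS5 stood at 645, 803 and 767 TPM with SE, against 2623, 2057 and 2424 TPM in untreated cells (-1.68) and ZFAS1 at 253, 323 and 316 TPM with SE, against 1054, 831 and 1033 TPM in untreated cells (-1.71), and in none of these genes did the groups overlap. SNHG1 (-0.11) and SNHG3 (0.56) were not called. Of 35 genes of ribosome biogenesis 6 rose, 17.1% against 17.0% of all genes, among them the nucleolar protein gene NCL at 981, 882 and 873 TPM with SE, against 466, 509 and 465 TPM in untreated cells (0.92), and 1 fell. Of 42 translation factor genes 7 rose (16.7%, and 3 with quantile normalization) and 2 fell (5 with median-ratio scaling).

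No nuclear gene of the respiratory chain fell as deposited, although 1 or 2 of complex I did under each of the 4 scalings. The share that rose was near that of all genes for complexes II to V. Of 37 complex I genes 11 rose (median 0.46) and of 39 genes of complexes II to V 8 rose (median 0.41), 29.7% and 20.5% against 17.0% of all genes. NDUFB3, a complex I subunit, stood at 202, 202 and 197 TPM with SE, against 92.1, 88.5 and 85 TPM in untreated cells, a difference of 1.17 log2 units (adjusted p = 2.65e-09, standard error 0.059), and ATP5MC1, a rotor subunit of ATP synthase, at 579, 594 and 549 TPM with SE, against 258, 256 and 236 TPM in untreated cells (1.2). The count for complexes II to V was 13 without SE replicate 1 and 4 without the ribosomal protein genes. With quantile normalization, with median-ratio scaling or without the ribosomal protein genes, 9 complex I genes were called higher and 2 lower. With the GC and length trend removed 10 were higher and 1 lower. A single complex I gene was also lower without untreated replicate 2, SE replicate 1 or SE replicate 2. Genes of the mitochondrial ribosome had a median of 0.47, 28 of 77 rising as deposited (36.4% against 17.0% of all genes). Under the 4 scalings 14 to 16 of them rose, while rises over all genes went from 2532 to between 1940 and 2038. Among the 13 protein-coding genes of the mitochondrial genome 4 rose (30.8%), a count of 7 with quantile normalization. MT-ND2 stood at 7238, 6173 and 5881 TPM with SE, against 2876, 3535 and 3234 TPM in untreated cells (1.0), MT-CYB at 7532, 6308 and 6239 TPM with SE, against 3399, 4252 and 3863 TPM in untreated cells (0.80) and MT-ND6, the single one encoded on the light strand, at 1380.2, 1323 and 1404 TPM with SE, against 485, 467 and 502 TPM in untreated cells (1.5). MT-CO1 stood at 16751, 15259 and 15248 TPM with SE, against 20751, 22569.7 and 21325 TPM in untreated cells (-0.45, not called), and the ribosomal RNA MT-RNR2, poorly captured by poly(A) selection, at 7596, 6230.2 and 6629 TPM with SE, against 14627, 14723 and 13914 TPM in untreated cells (-1.09).

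Regulators of mitochondrial biogenesis and dynamics were called in both directions. The study itself discusses some of them, which are therefore no independent evidence of a direction. By Western blot it reported more protein of FOXJ3, PGC-1α, TFAM, TOMM20, MFN1 and MFN2 in treated cells. It also reported less of the fission factor MFF, whereas the values here are RNA. The RNA values of FOXJ3 and MFF are not reported here. Of 27 listed regulators tested 2 rose and 2 fell, with a median of -0.03, and the shares of 7.41% and 7.41% lie below the 17.0% and 11.0% of all genes. There were 4 rises without SE replicate 1 and 1 fall without untreated replicate 3 or SE replicate 3. TFAM, which packs and transcribes mitochondrial DNA (ENSG00000108064, chromosome 10, 58385345 to 58399220), stood at 51.8, 54.1 and 53.2 TPM with SE, against 27, 25.6 and 30.4 TPM in untreated cells, a difference of 0.93 log2 units (adjusted p = 3.46e-06, standard error 0.10). SSBP1, the single-strand binding protein of mitochondrial DNA, stood at 271, 284 and 284 TPM with SE, against 169, 167 and 166 TPM in untreated cells (0.74), a call lost with quantile normalization and with the GC and length trend removed. PPARG, the nuclear receptor, stood at 20.4, 21.9 and 20.3 TPM with SE, against 35.1, 36.1 and 40.01 TPM in untreated cells (-0.81), every SE library lying below every untreated one, and MEF2A fell by 0.63, a call lost without untreated replicate 3 or SE replicate 3. NRF1, a factor for respiratory genes, stood at 11.9, 10.7 and 9.97 TPM with SE, against 8.57, 10.3 and 10.9 TPM in untreated cells (0.13) and TOMM20, the receptor of the import pore, at 146, 167 and 163 TPM with SE, against 191, 165 and 196 TPM in untreated cells (-0.21), with overlap between the groups in each. The fusion genes MFN2 (-0.03), MFN1 (0.27) and OPA1 (-0.25) and the fission genes DNM1L (0.41) and FIS1 (0.55) were not called, FIS1 passing without SE replicate 1 or untreated replicate 2. PPARGC1A, which encodes PGC-1α, was below the filter on low values and was not tested, so the reported rise of its protein has no RNA value beside it.

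Of 24 genes of mitochondrial protein import 6 rose (25% against 17.0% of all genes) and 1 fell. There were 3 falls with median-ratio scaling, without the ribosomal protein genes or without untreated replicate 2. Quantile normalization gave 2 falls, as did leaving out SE replicate 2. In intermediary metabolism, genes of glycolysis and of cholesterol synthesis rose more often than they fell. Of 32 glycolytic and hypoxia-inducible genes 13 rose and 4 fell (8 rises with quantile normalization), with GAPDH at 4131, 4409 and 4683 TPM with SE, against 2103, 1935 and 2073 TPM in untreated cells (1.11), TPI1, an isomerase, at 1.19, and HK2, the inducible hexokinase, among the falls at 18.1, 17.8 and 16.4 TPM with SE, against 37.9, 35 and 35.6 TPM in untreated cells (-1.03). NDRG1, a hypoxia-inducible gene, stood at 42.9, 40.5 and 36.6 TPM with SE, against 119, 141 and 122.9 TPM in untreated cells (-1.66). Of 25 genes of cholesterol synthesis 12 rose and none fell (median 0.56). ACAT2, a thiolase that makes the first intermediate of the pathway (ENSG00000120437, chromosome 6, 159762045 to 159779112), stood at 50.5, 53.2 and 53.2 TPM with SE, against 14.4, 15.7 and 17.2 TPM in untreated cells, a difference of 1.7 log2 units (adjusted p = 1.64e-09, standard error 0.081), with 17.2% of its exonic bases overlapping TCP1 on the other strand, and FDPS, which makes farnesyl diphosphate, at 226, 229.6 and 241 TPM with SE, against 82.5, 94.4 and 87.6 TPM in untreated cells (1.39). In fatty acid synthesis 6 of 15 rose, such as FASN (0.82) and ACLY (0.85), and 1 fell, a call lost without untreated replicate 2 or SE replicate 1. In fatty acid oxidation 5 of 20 rose, such as CPT2 (1.04), and 2 fell, the rises making 25% against 17.0% of all genes. Of 27 genes of the TCA cycle and its entry 7 rose (25.9%), FH by 1.07, and 4 without the ribosomal protein genes. None fell as deposited, while 1 fell under each of the 4 scalings and without SE replicate 3. The pentose phosphate pathway had 4 rises among 9 genes, and of 17 amino acid carriers 4 rose and 2 fell (2 rises and 4 falls under each of the 4 scalings, 1 fall without untreated replicate 3). For the carriers these are 23.5% and 11.8%, against 17.0% and 11.0% of all genes. Autophagy and lysosome genes moved both ways, 8 up and 7 down of 34, 23.5% and 20.6% against 17.0% and 11.0% of all genes. Genes of the autophagosome membrane were among those that fell, ATG12 at 77.8, 103 and 91.9 TPM with SE, against 426, 314 and 346 TPM in untreated cells (-1.98) and MAP1LC3B at 47.2, 58 and 55 TPM with SE, against 146, 148 and 159 TPM in untreated cells (-1.49).

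SE was then set against each of the other treatments in the same model, in 3 comparisons that share the SE libraries. Against AE 289 genes were higher with SE (1.94%) and 414 lower (2.78%), against TE 700 higher (4.7%) and 546 lower (3.66%), and against HTyr 741 higher (4.97%) and 355 lower (2.38%). The split against HTyr turned with the scaling, 322 higher and 563 lower with median-ratio scaling. Of the 14899 genes tested, 154 were called higher with SE, and 182 lower, than with each of AE, TE, HTyr and no treatment. These counts were not computed under the 4 scalings. CYP1A1 stood 2.32 above AE, 3.29 above TE and 1.49 (standard error 0.17, adjusted p = 3.57e-05) above HTyr, on the log2 scale. HSPE1 stood 1.07, 1.19 and 1.21 above AE, TE and HTyr, and ACAT2 1.1, 1.12 and 1.28. In the lists of chaperones 11, 14 and 16 of 33 members were higher than with AE, TE and HTyr, in cholesterol synthesis 9, 8 and 12 of 25, and in replication 21, 35 and 39 of 48. Of the 34 NRF2 genes 0 were called higher and 2 lower than with AE, while 9 were higher than with TE and 14 than with HTyr, and the difference of NQO1 from AE was 0.04 (standard error 0.047, adjusted p = 0.622).

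The genes that SE left lowest were led by LCN2, which differed from AE by -2.87, from TE by -3.69 and from HTyr by -2.3 (standard error 0.097, adjusted p = 3.88e-08). DDIT3 differed by -2.01, -2.12 and -2.02, UPP1, a uridine phosphorylase, by -1.78, -1.7 and -2.01, and RBCK1, a ubiquitin ligase subunit, by -2.04, -2.29 and -1.59. IL20RB, a cytokine receptor subunit, stood at 5.25, 2.93 and 3.74 TPM with SE, 20.8, 18.8 and 19.1 TPM with AE and 20, 24.3 and 24 TPM in untreated cells. Of 30 ATF4 targets 21 were lower than with AE, 17 than with TE and 9 than with HTyr, with ASNS at -1.25, -0.96 and -0.96. Of 15 snoRNA host genes 6, 7 and 6 were lower, with SNHG32 at -1.77, -2.1 and -1.18. In the YAP list CCN1 did not differ past the thresholds (-0.28, -0.26 and -0.31), nor did ACTB (0.23, 0.07 and 0.19), which a p short of the threshold does not show to be the same. DKK1 stood 1.59 (standard error 0.11, adjusted p = 5.15e-07) above AE, although it fell against untreated cells.

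**Figure D5:**
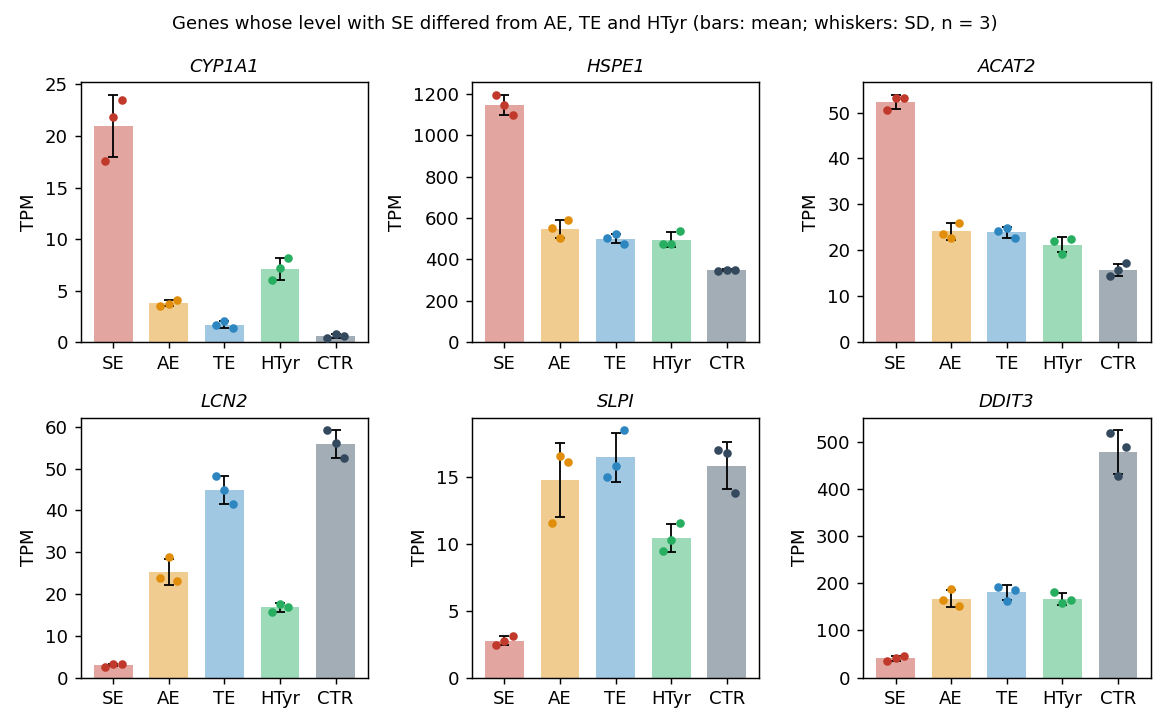
Abundance (TPM, linear axes from 0) of 6 genes with SE, AE, TE, HTyr and no treatment (CTR), with points for libraries, bars for means and whiskers for the SD of 3 libraries. CYP1A1, HSPE1 and ACAT2 are highest in the 3 SE libraries, and LCN2, SLPI and DDIT3 are lowest in them.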

How the data were processed

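Poly(A) RNA of HCT116 cells was made into stranded libraries and sequenced. The authors trimmed reads with Scythe and Sickle, aligned them to GRCh38 with STAR and estimated transcript abundance with RSEM on Ensembl gene models, and they deposited TPM per gene for 15 libraries. Versions of the aligner and the quantifier, and the strand setting used in counting, were not given in the sources used here. TPM keep neither counts nor depth, so the precision of a value cannot be derived from them and no count model was used.

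The 60664 genes were named from GENCODE 44, and the 14899 with at least 1 TPM in 3 or more libraries were tested. In R 4.3.3, limma 3.58.1 was used to fit log2(TPM + 0.5) as 5 group means with a mean-variance trend over all 15 libraries (10 residual degrees of freedom), and p-values were adjusted by Benjamini-Hochberg over all genes tested. A gene was called at an adjusted p under 0.05 and a fold change over 1.5. The limma step was tested on simulated data. Members of the 55 gene lists, the lists themselves and the tests were chosen with earlier results of these data known. Genes were named by rule: the largest changes among genes without overlap between groups and with at least 5 TPM in the higher group, the largest gains and losses in TPM, the members of each list with the smallest p and those that moved against it, the genes most different from all other treatments, genes switched on or off, and the largest changes of long noncoding genes. Listed members given as not called, and some called members beside them (for example GCLM, KEAP1, PRDX1, FEN1, TK1, CDK1, PLK1, AURKA, MKI67, MDM2, HSPD1, ERN1, ASNS, EGFR, CCN2, CD274 and FASN), were added after their values were seen. Some genes that the rule would name are not reported here. Shared exonic bases were computed from GENCODE 44 and promoters were read from RefSeq. Same-numbered SE and untreated libraries did not deviate together (Pearson r of deviations from the group means -0.067, -0.0037 and 0.0095), so the numbers were not used as pairs. Alternatives covered scaling, the pseudocount, filters, the fold threshold, the model, a replicate block and each library left out.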

Additional observations from a re-analysis of the deposited data

How the results depend on the processing

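A change of direction was counted only for results that were called, so changes of sign in results not called were not counted. Counted in this way, none of the 361 results named by rule changed direction in an alternative in which it was computed. Many of these results were named for a large change or a small p in these same data, which made a change of direction unlikely in advance. The calls of these results were the same with the replicate number as a block, where 4157 genes were called between SE and untreated cells (2534 higher and 1623 lower), 672 against AE, 1235 against TE and 1099 against HTyr, although the numbers do not pair the samples. With quantile normalization 30 calls were lost and 4 gained, with median-ratio scaling 14 and 4, with the GC and length trend removed (added after seeing the data) 19 and 4, and without the ribosomal protein genes 19 and 2. A fold over 2 left 1629 genes against untreated cells (962 higher, 667 lower), 157 against AE (40 and 117), 260 against TE (95 and 165) and 190 against HTyr (75 and 115). A limma treat test at a fold of 1.5 left 1623 (1036 higher, 587 lower), 84 (14 and 70), 144 (50 and 94) and 74 (22 and 52). A mean of at least 5 TPM left 1067 genes lower than in untreated cells, and 184 genes were higher than with AE without the ribosomal protein genes. Against HTyr 322 genes were higher and 563 lower with median-ratio scaling, 350 higher with quantile normalization, and 724 were called, 267 of them higher, with the GC and length trend removed. The cause of these shifts was not tested. Leaving out 1 library at a time gave 3984 to 4182 genes against untreated cells (2396 to 2599 higher, 1540 to 1618 lower), 620 to 709 against AE (239 to 295 and 347 to 418), 1135 to 1266 against TE (618 to 739 and 500 to 549) and 874 to 1277 against HTyr (554 to 901 and 320 to 382).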

Other observations

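Genes that were under 0.5 TPM in all libraries of one group and at least 1 TPM in all of the other numbered 25 that came on with SE and 32 that went off. Among those that went off were DCLK1, a kinase of tuft cells, at 0.22, 0.29 and 0.17 TPM with SE, against 2.86, 2.79 and 3.26 TPM in untreated cells (log2 fold change -2.26), BEST1, a chloride channel, at 0.32, 0.10 and 0.28 TPM with SE, against 3.52, 3.03 and 3.99 TPM in untreated cells (-2.46), and the acid-sensing channel gene ASIC4 at 0.48, 0.33 and 0.37 TPM with SE, against 3.32, 3.4 and 3.31 TPM in untreated cells (-2.11). BEST1 shares 14.6% of its exonic bases with FTH1 on the other strand. The hair keratin gene KRT86 stood at 0.12, 0.05 and 0 TPM with SE, against 2.79, 3.23 and 3.62 TPM in untreated cells (-2.74), and has close paralogs among which reads can be split. Of 1413 long noncoding genes tested 213 rose and 151 fell, a share of 15.1% and 10.7%. KLRK1-AS1 stood at 13.7, 15 and 14.6 TPM with SE, against 2.82, 4.23 and 2.51 TPM in untreated cells (2.04) and LINC01963 at 9.68, 10.01 and 10.4 TPM with SE, against 1.11, 1.48 and 2.24 TPM in untreated cells (2.35). Chromatin enzymes rose in 11 of 23 cases and fell in none (6 rises with quantile normalization, 7 without the ribosomal protein genes), with the remodeller gene HELLS at 1.75, the DNA methyltransferase gene DNMT1 at 0.99 and the Polycomb methyltransferase gene EZH2 at 0.85, while DNMT3A (-0.19) and EZH1 (-0.34) were not called. Among histone genes H2AX rose by 1.45 and H2AZ1 by 1.38, and the linker histone gene H1-10 fell by 0.90, with 6 of 13 rising in all (3 with quantile normalization) and 1 falling (2 without any 1 of untreated replicates 1 and 2 and SE replicates 2 and 3). In the MYC and MondoA network 1 of 12 genes rose and 2 fell, 8.33% and 16.7% against 17.0% and 11.0% of all genes. There the antagonist MXD1 stood at 2.03, 1.72 and 1.63 TPM with SE, against 5.45, 5.72 and 5.74 TPM in untreated cells (-1.42) and the glucose-responsive arrestin ARRDC4 at 3.07, 3.21 and 3.12 TPM with SE, against 0.60, 0.98 and 1.23 TPM in untreated cells (1.36), and ARRDC4 stood at -1.5 and -1.51 relative to AE and TE.

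Some of the largest fold changes lie in very short RNAs. MIR1307, of which 95.3% of the bases lie in ATP5MK, stood at 19.2, 5.62 and 12.6 TPM with SE, against 0, 0 and 0 TPM in untreated cells, and the copy of SNORD22 with the identifier ENSG00000277194, which lies wholly within exons of SNHG1, at 0, 0 and 0 TPM with SE, against 65.3, 78.7 and 74.4 TPM in untreated cells, with a standard error of 2.50 and a call lost without any 1 of the 6 libraries. The 16 copies of the 5S ribosomal RNA gene that were tested held a single value within each library, adding up to 335, 0 and 0 TPM with SE, against 1780.3, 353 and 2025 TPM in untreated cells, and to 10726 TPM in TE replicate 3. CD68, counted here as a leukocyte marker, stood at 3.27, 2.18 and 2.56 TPM with SE, against 16.4, 17.3 and 16.8 TPM in untreated cells, with PTPRC listed at 0 in all of them. Rises were most frequent among transcripts of low GC content and falls among those of high GC content, 20.1% rising and 7.03% falling in the lowest of 5 equal bins by GC and 13.1% rising and 15.6% falling in the highest.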
